A study of Mus musculus with 4 samples.

Results

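The inflammasome genes described here are Casp1, Casp4, Casp12, Nlrp3, Nlrc4, Aim2, Pycard, Gsdmd, Il1b and Il18, and they were compared between a mouse ovarian cancer cell line and a line derived from it in the omentum. They are 10 of the 22907 genes that probes of the array could be assigned to, and 14 of its 56605 probes, taken as every probe whose RefSeq accession belongs to 1 of the 10 symbols. The set was selected on the measured difference of Casp1, which is among the strongest gains in GO2 cells over ID8G cells in these same arrays. The differences of its genes between the lines, and counts of those that pass a limit, are therefore given as a description, not as a test. Nothing is read from them. ID8G cells are ID8 cells, a mouse ovarian cancer line, that were transduced with a GFP retrovirus and sorted for GFP. GO2 cells descend from ID8G cells that were injected intraperitoneally into female C57BL/6 J mice. They were recovered from omental tumors by sorting CD45-negative GFP-positive cells, put back into mice for a further round of 3 to 4 months, recovered in the same way and cultured. Both lines therefore carry the GFP vector and were measured as cultured cells in the same medium, and neither received another treatment. GO2 cells are 1 selected line, and passage in mice, the sort and the later culture cannot be told apart. There were 2 Agilent arrays for each line, hybridized with Cy3 alone. Nothing states that the 2 arrays of a line came from separate cultures, so any p-value here measures only the spread between these arrays, which may be technical, and 2 arrays per line limit the precision.

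Inflammasomes are cytosolic platforms in which a sensor such as Nlrp3, Nlrc4 or Aim2 joins the adaptor ASC, the product of Pycard, and activates caspase-1. Caspase-1 cleaves the precursors of the cytokines interleukin-1 beta and interleukin-18 and opens gasdermin D, the product of Gsdmd, whose fragment forms pores in the plasma membrane. Casp4 encodes mouse caspase-11, which is activated by bacterial lipopolysaccharide in the cytosol and also cleaves gasdermin D. The pathway is best known from macrophages and other myeloid cells, although epithelial cells use several of its components. The arrays measure RNA only, and activation of a caspase is a matter of cleavage that these data do not show.

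Casp1, Casp4 and Casp12 lie next to each other on chromosome 9, and in the RefSeq table of GRCm38.p6 the promoter windows of Casp1 and Casp4 start 10332 bases apart, with that of Casp12 a further 36627 bases on. Promoter sequences, from 250 bases before to 50 bases after the start of transcription, were given for 9 of the 10 genes, all but Gsdmd, in 11 windows. The windows of the caspases, Il18 and Pycard are shown because these are the genes with a given promoter that had a probe well above background on both arrays of a line. They are Casp1 at chr9:5298267-5298566, Casp4 at chr9:5308599-5308898, Casp12 at chr9:5345226-5345525 and Il18 at chr9:50554450-50554749, all on the plus strand, and Pycard at chr7:127993818-127994117 on the minus strand. All are written 5′ to 3′ along the gene, with matches to the searched motifs in capitals.
Casp1: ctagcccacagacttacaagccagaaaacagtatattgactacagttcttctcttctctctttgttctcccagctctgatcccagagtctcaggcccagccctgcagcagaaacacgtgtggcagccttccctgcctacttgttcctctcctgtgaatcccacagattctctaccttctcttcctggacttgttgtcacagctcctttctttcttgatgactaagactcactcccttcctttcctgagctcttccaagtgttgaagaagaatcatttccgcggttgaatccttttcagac
Casp4: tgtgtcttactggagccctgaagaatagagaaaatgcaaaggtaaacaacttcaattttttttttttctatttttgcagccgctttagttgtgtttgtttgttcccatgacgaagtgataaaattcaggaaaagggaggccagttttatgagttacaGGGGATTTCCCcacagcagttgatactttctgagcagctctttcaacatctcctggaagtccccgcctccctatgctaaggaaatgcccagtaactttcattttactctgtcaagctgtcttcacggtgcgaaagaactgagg
Casp12: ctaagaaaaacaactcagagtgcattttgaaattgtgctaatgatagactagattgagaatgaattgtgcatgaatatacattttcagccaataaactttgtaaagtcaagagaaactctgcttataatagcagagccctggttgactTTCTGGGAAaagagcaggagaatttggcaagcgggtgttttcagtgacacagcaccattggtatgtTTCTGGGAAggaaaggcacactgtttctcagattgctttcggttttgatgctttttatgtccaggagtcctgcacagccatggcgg
Il18: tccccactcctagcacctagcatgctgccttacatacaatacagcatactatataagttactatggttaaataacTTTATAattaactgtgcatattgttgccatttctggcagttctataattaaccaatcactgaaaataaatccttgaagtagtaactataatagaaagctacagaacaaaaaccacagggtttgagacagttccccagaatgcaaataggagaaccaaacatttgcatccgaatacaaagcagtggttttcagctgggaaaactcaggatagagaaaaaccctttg
Pycard: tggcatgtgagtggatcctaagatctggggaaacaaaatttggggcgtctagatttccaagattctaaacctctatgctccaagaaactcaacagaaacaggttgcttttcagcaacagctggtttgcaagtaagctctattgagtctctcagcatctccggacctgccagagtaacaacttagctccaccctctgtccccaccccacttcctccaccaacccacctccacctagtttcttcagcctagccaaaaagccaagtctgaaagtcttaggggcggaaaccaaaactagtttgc

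Searched on both strands were an interferon-stimulated response element core (GAAA, 2 free bases and GAAA), a gamma-activated site (TTCNNNGAA), an AP-1 site (TGANTCA), the kappaB consensus and a TATA box (TATAAA). The Casp1 and Pycard windows held none of the 5. The capitals in Casp4 are a pair of overlapping kappaB matches, GGGGATTTCC from -93 to -84 and GGGATTTCCC from -92 to -83 relative to the start, where 4.51% of 32851 mouse promoter windows hold a kappaB match. In Casp12 the gamma-activated site TTCTGGGAA occurred from -102 to -94 and again from -36 to -28, and 8.30% of all windows hold such a site. Il18 carried only a TATA box on the opposite strand, TTTATA from -175 to -170, a motif present in 13.6% of windows. The interferon-stimulated element and the AP-1 site, held by 3.44% and 7.81% of all windows, were found in none of the 11. The Il18 window was also low in GC, with 36.7% and 1 CpG, where the median window has 52.7% and 7 CpG, and the Casp1 window had 48.0% and 3 CpG. A match describes letters only, and binding was not measured.

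The scanner software marked between 27507 and 28876 of the 56605 probes as well above background on each array. Levels are log2 intensities from which the 75th percentile of the array was subtracted. That percentile lay at intensities of 627.2 to 675.1. A level of 0 therefore equals that percentile, and a difference of 1 is 2-fold. The lowest signal marked as well above background lay between -3.85 and -3.53 on the 4 arrays, and no spot was saturated. Over the 28370 probes that passed the background filter given next, replicate arrays correlated at 0.997 within each line, and arrays of different lines at 0.967 to 0.968. Probes had to be well above background on each array of ID8G, of GO2 or of both to be tested, and limma was fitted over all 28370 of them. A probe counts as called when its adjusted p (Benjamini-Hochberg) is below 0.05 and the lines differ by 2-fold or more, and a gene as called when at least 1 of its probes is. Of the 14 probes of the inflammasome genes, 8 probes for 6 genes entered this comparison, and the other 6 probes were not well above background on any array. As a description only, since the set was selected on this comparison, 4 of the 6 tested genes met these limits as higher and 1 as lower in GO2 cells, Casp1 only through its GO2 signal, where 6.44% of all 13212 tested genes were called higher and 4.33% lower. Over probes these shares were 4.5% and 3.34%. By the methods' t-test with the same limits, again as a description, 0 of the 6 were called in either direction. That test called 0% of all tested genes higher and 0.0227% lower. At an unadjusted p below 0.05 with 2-fold it gave 4 higher and 1 lower, where it gave 5.25% and 3.45% of all tested genes. No enrichment is read from these counts. The levels of the lines did not overlap for any of the 8 probes, as for 73.5% of all tested probes.

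**Figure D1:**
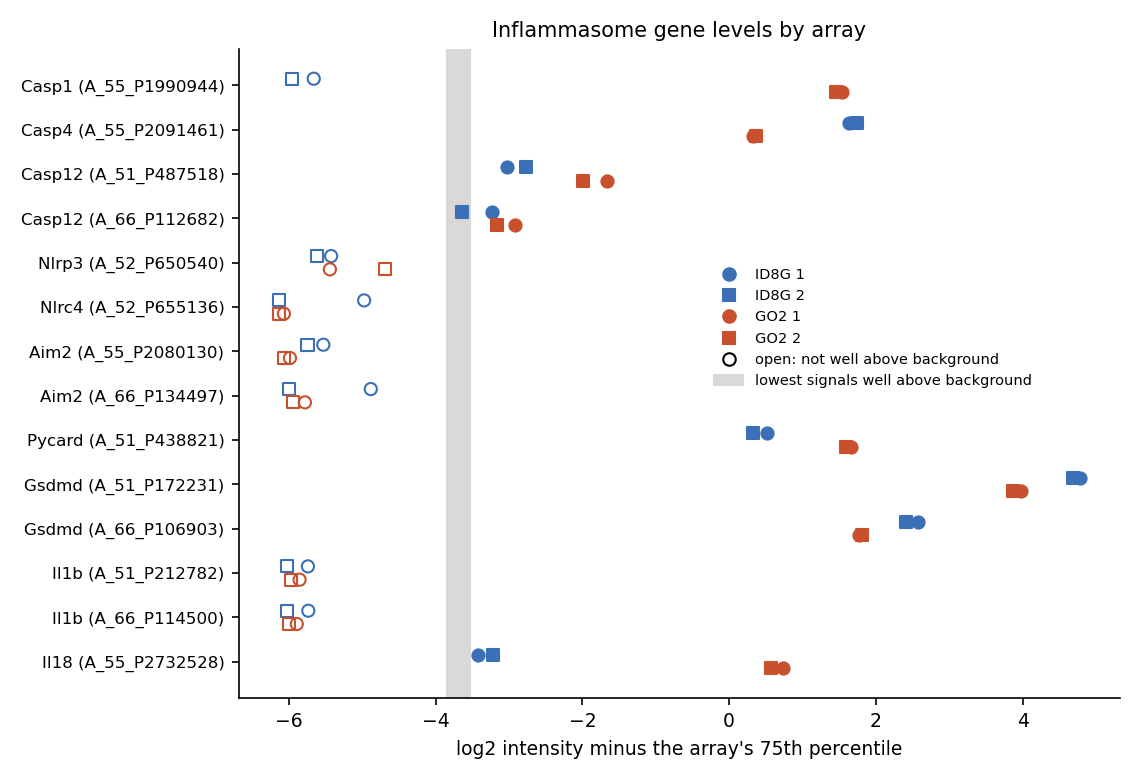
Levels of the 14 probes of the inflammasome genes on the 4 arrays, as log2 intensity relative to each array's 75th percentile, with ID8G arrays in blue and GO2 arrays in orange. Open symbols are not well above background and the grey band spans the lowest signals that are. Casp1 lies at -5.66 and -5.96 in ID8G cells and at 1.54 and 1.46 in GO2 cells, while Nlrp3, Nlrc4, Aim2 and Il1b lie left of the band on all 4 arrays.

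The sensors Nlrp3, Nlrc4 and Aim2 and the cytokine gene Il1b were not detected in either line, unlike some sensors of the wider pathway list, given below. Nlrp3, which senses membrane damage and ion fluxes, had levels of -5.42 and -5.61 in ID8G cells and -5.44 and -4.69 in GO2 cells. Nlrc4, which joins the Naip receptors for bacterial flagellin and secretion systems, had levels of -4.97 and -6.13 in ID8G cells and -6.07 and -6.13 in GO2 cells. All of these lay below the lowest signal well above background, so no direction can be given for either gene. The 2 probes of Aim2, a sensor of cytosolic DNA, and the 2 probes of Il1b lay in the same range, and the 6 undetected probes spanned -6.13 to -4.69 over the 4 arrays. Such a probe gives only an upper bound on the level, and RNA below that bound was not detectable.

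The adaptor was measured in both lines. Pycard (A_51_P438821) had levels of 0.51 and 0.33 in ID8G cells and 1.66 and 1.60 in GO2 cells. Both GO2 arrays lay above both ID8G arrays, with means of 0.42 ± 0.13 (SD, n = 2) and 1.63 ± 0.04. The difference was 1.21 with a standard error of 0.08, or 2.31-fold.

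The 3 inflammatory caspases did not move in the same direction. The Casp1 probe (A_55_P1990944) gave intensities of 13.3 and 10.8 in ID8G cells and 1847 and 1721 in GO2 cells. Its levels were -5.66 and -5.96 in ID8G cells and 1.54 and 1.46 in GO2 cells. Casp1 was thus not well above background on either ID8G array and clearly above it on both GO2 arrays. Set against the lowest measurable signal of the ID8G arrays, Casp1 was at least 5.18 higher on the log2 scale, which is at least 36.1-fold. The bound holds for this background subtraction. The measured difference was 7.31, against ID8G signals at background, and with normexp background correction it was 4.48, below the bound.

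Casp4 moved the other way. Its probe (A_55_P2091461) had levels of 1.64 and 1.74 in ID8G cells and 0.32 and 0.37 in GO2 cells, all well above background. Both GO2 arrays lay below both ID8G arrays, and the means were 1.69 ± 0.08 (SD, n = 2) and 0.35 ± 0.03. The difference was -1.34 with a standard error of 0.06, or 2.54-fold lower in GO2 cells.

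Casp12, the third gene of the run, had 2 probes. The probe A_51_P487518 had levels of -3.03 and -2.77 in ID8G cells and -1.66 and -1.99 in GO2 cells, a difference of 1.07 with a standard error of 0.15. The probe A_66_P112682 had levels of -3.23 and -3.64 in ID8G cells and -2.92 and -3.17 in GO2 cells, and its difference of 0.39, with a standard error of 0.17, was not called. Both Casp12 probes were dim, and they differed in size of change but not in direction. The call of the first probe was lost without GO2 replicate 1 (difference 0.91), without ID8G replicate 1 (0.95), with spike-in scaling (0.87), with no filter on dim probes and with normexp background correction (0.67). The caspases are related in sequence, and since no probe sequences were used here, hybridization of 1 probe to several of them was not tested.

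**Figure D2:**
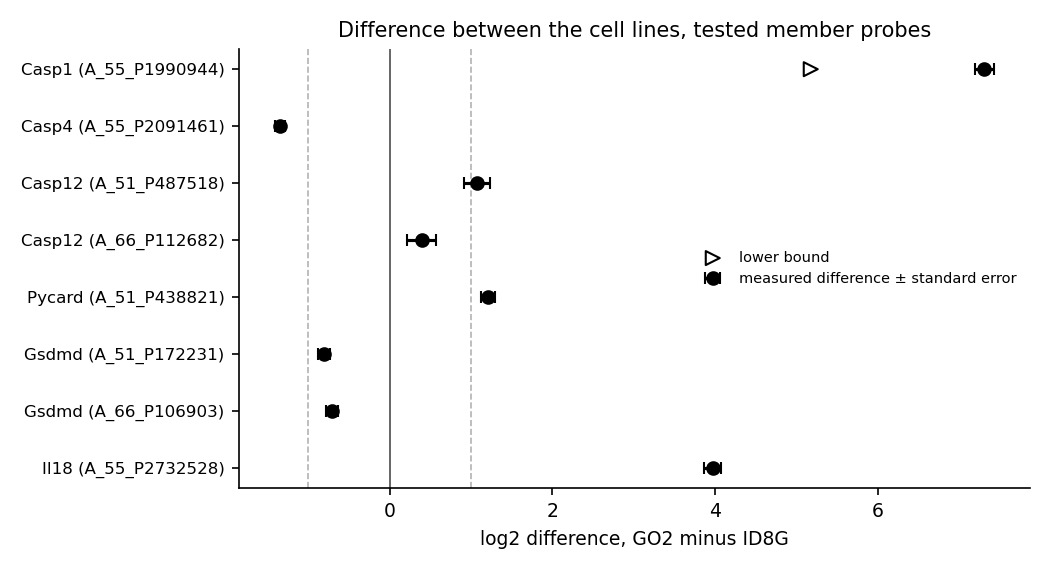
Difference between the lines, GO2 minus ID8G on the log2 scale, for the 8 tested probes, with bars for the standard error, dashed lines at a 2-fold difference and a triangle at the lower bound for Casp1. Casp1 (7.31, bound 5.18) and Il18 (3.97) lie far to the right, Pycard and 1 Casp12 probe just past 1, Casp4 at -1.34, and both Gsdmd probes between -1 and 0.

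The substrates also split. Il18 (A_55_P2732528), the precursor of interleukin-18, gave intensities of 63.0 and 71.9 in ID8G cells and 1059 and 930.5 in GO2 cells. Its levels were -3.42 and -3.22 in ID8G cells and 0.74 and 0.57 in GO2 cells. Il18 was well above background on all 4 arrays, only just so in ID8G cells, and both GO2 arrays lay far above both ID8G arrays. The means were -3.32 ± 0.15 (SD, n = 2) and 0.65 ± 0.12, and the difference was 3.97 with a standard error of 0.11, or 15.7-fold.

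Gsdmd was measured by 2 probes that moved alike. The brighter, A_51_P172231, had levels of 4.78 and 4.68 in ID8G cells and 3.98 and 3.87 in GO2 cells. The other, A_66_P106903, had levels of 2.57 and 2.42 in ID8G cells and 1.77 and 1.80 in GO2 cells. On both probes the GO2 arrays lay below the ID8G arrays, with differences of -0.81 (standard error 0.07) and -0.70 (standard error 0.07), neither of which reached 2-fold. With scaling to the spike-ins the brighter probe differed by -1.01 and was called lower.

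Among the 8 tested probes, the SD between the 2 arrays of a line ranged from 0.02 to 0.29. Nearest to Casp1 in pattern, by the distance between the 4 levels of each probe after subtraction of its own mean, were Fbln5, Gm1673, Col1a2, Apbb1ip and Kcnmb4, with distances of 0.08 to 0.46. Casp1 and all of these but Col1a2 were not well above background in ID8G cells, so no order is read from the distances.

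The neighbors of the caspases and of Il18 on chromosome 9 showed no shift common to all, but the tested genes on the side of Casp12 were all lower in GO2 cells. On the side of Casp1, the 4 tested genes Alkbh8, Cwf19l2, Aasdhppt and Msantd4 differed by 0.12, 0.25, -0.10 and 0.03. On the side of Casp12, Dync2h1 and Dcun1d5 differed by -0.45 and -0.12, and the matrix metalloproteinase genes Mmp13, Mmp10 and Mmp8 were called lower, by -1.13, -2.66 and -1.11. Casp1, higher by at least 5.18, therefore stood between Msantd4 at 0.03 and Casp4 at -1.34. Of the 10 tested genes around Il18, Ttc12 was called higher by 1.53, and the other 9 lay between -0.25 and 0.33.

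**Figure D3:**
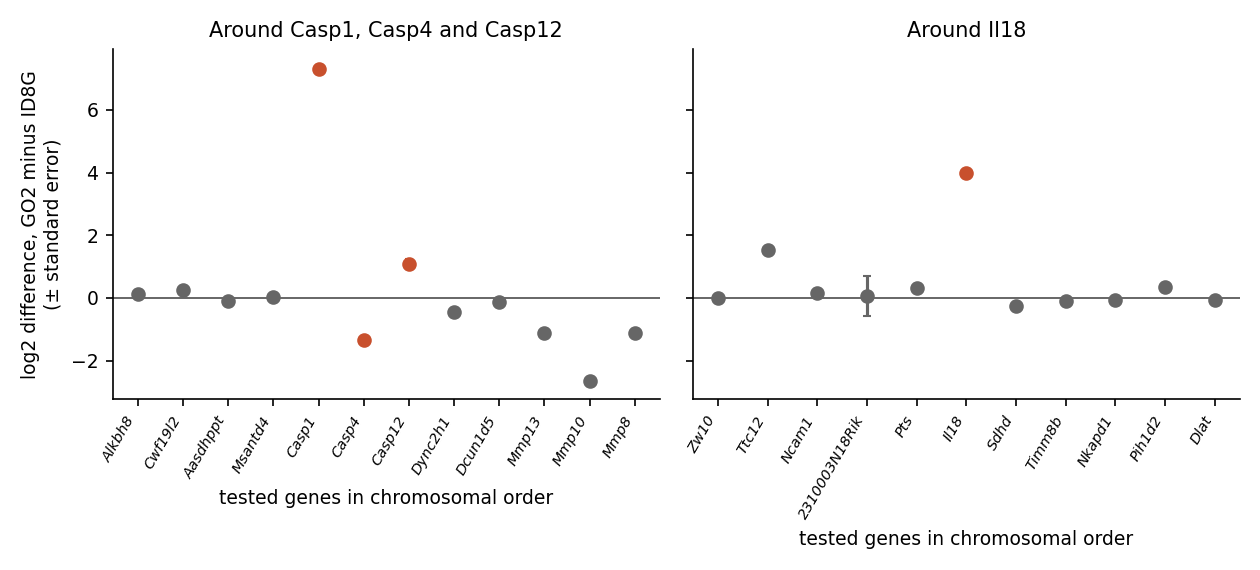
Differences, GO2 minus ID8G on the log2 scale, of the tested genes around Casp1, Casp4 and Casp12 (left) and around Il18 (right), in their order on chromosome 9, with the named inflammasome genes in orange and bars for the standard error. Casp1 at 7.31, measured against ID8G signals at background, and Il18 at 3.97 stand above neighbors that mostly lie near 0, and Mmp10 at -2.66 is the lowest.

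The wider pathway was followed in a list of 106 further symbols, of which 95 had a probe and 53 were tested. In GO2 cells 14 of the 53 genes were called higher and 3 lower (limma), and 36 did not pass, where 6.44% of all tested genes were called higher and 4.33% lower. With 1 lower among 12 sensors and 1 among 21 genes of activation and restraint, the counts of lower genes lie near that share. The median difference of the 53 was 0.12, where that of all 13212 tested genes was -0.0005. Of the 48 genes measured in both lines, 10 rose and 3 fell, with adjusted p from 0.000189 to 0.003554 over their called probes with signal above background on each of the 4 arrays. The other 5, Serpinb1a, Il18rap, Card6, Gbp3 and Zbp1, were tested only because of their signal in GO2 cells, and the first 4 of them were called higher. For these 4 the values are a description, with no p.

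Among the other sensors, 12 of 26 with a probe were tested, 3 rose and 1 fell, where 6.44% of all tested genes were called higher and 4.33% lower. The 3 that rose are PYHIN genes, the family of Aim2, which lie beside Aim2 on chromosome 1. Ifi204 had levels of 0.95 and 0.98 in ID8G cells and 3.18 and 3.13 in GO2 cells, a difference of 2.20 with a standard error of 0.05 (limma, adjusted p = 0.000245). Ifi205 rose by 1.83 (adjusted p = 0.000304) on its brighter probe, while its other probe was not well above background on any array. Mndal rose by 2.59 (adjusted p = 0.000766). On its tested probe each of the 3 had both GO2 arrays above both ID8G arrays, where the lines did not overlap for 73.5% of all tested probes. These genes are close relatives, and probes for them may share signal, which could not be checked here. Ifi208, which lies between Aim2 and Ifi204, differed by 0.15 and did not pass. The Aim2 region was chosen after its values were seen, and in it Cfap45 and Dusp23, which are not PYHIN genes, were also called higher, Cfap45 by at least 2.18-fold since it was not well above background in ID8G cells, and Dusp23 by 2.13 on the log2 scale. Naip2, a receptor that works with Nlrc4, fell by 1.27 (limma, adjusted p = 0.001647), from -2.11 and -2.21 to -3.35 and -3.52. With normexp background correction it differed by -0.67 and was not called. Of the tested sensors that did not pass, Nlrp1a lay at 5.14 and 5.08 in ID8G cells and at 4.89 and 4.85 in GO2 cells. Naip5 lay at 6.60 and 6.62 in ID8G cells and at 6.61 and 6.62 in GO2 cells. Both were read by their brighter probe, and the other probe of each was not well above background on any array.

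The 6 other caspases of the list were all tested, and they did not pass. Of the 2 other genes of gasdermin type and membrane rupture that were tested, Gsdme, which caspase-3 can open, rose from 0.62 and 0.58 to 1.85 and 1.76, a difference of 1.21 (limma, adjusted p = 0.000797). Gsdme and Gsdmd thus differed in direction, 1.21 against -0.81. With spike-in scaling Gsdme did not reach 2-fold.

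Of the other interleukin-1 family ligands, 8 had a probe and 2 were tested, of which 1 rose and 1 fell. Il33, an alarmin released from damaged cells, had levels of -0.28 and -0.41 in ID8G cells and 3.41 and 3.39 in GO2 cells, a difference of 3.74 with a standard error of 0.07 (limma, adjusted p = 0.000189). Its second probe rose by 3.07, with 1 ID8G array not well above background. That value is a description, with no p. Il1rn, the receptor antagonist that blocks interleukin-1, fell from 3.39 and 3.43 to 1.90 and 1.88, a difference of -1.52 (adjusted p = 0.000387), and its second probe gave -1.55. Of 11 receptor and binding protein genes with a probe, 4 were tested and 3 were called higher, Il18rap among them only through its GO2 signal. Of all tested genes 6.44% were called higher and 4.33% lower. Il1r1, the signaling receptor for interleukin-1, differed by 1.02 (limma, adjusted p = 0.003554), and its accessory chain Il1rap by 1.36 (adjusted p = 0.000859). The rise of Il1rap rests on the probe A_55_P2807476 alone. Its probe A_52_P467232, well above background on only 1 array of each line, was not tested and differed by -0.48. Its probe A_52_P207374 was not well above background on any array. Il18rap, the accessory chain of the interleukin-18 receptor, was not well above background in ID8G cells and was at least 2.24-fold higher in GO2 cells. Its measured difference of 1.21 was below 2-fold with normexp (0.61) and with spike-in scaling (0.9995). Il1r1 did not reach 2-fold without GO2 replicate 1 (0.94) or without ID8G replicate 2 (0.95), nor with normexp (0.74), spike-in scaling (0.81) or median centering (0.99).

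Among genes that activate or restrain the pathway, 3 of 21 tested were called higher and 1 lower, where 6.44% and 4.33% of all tested genes were. Serpinb1a and Card6 were tested only through their GO2 signal. Serpinb1a, a serine protease inhibitor of the cytosol, was not well above background on either ID8G array (-4.23 and -4.20) and lay at 1.02 and 0.89 in GO2 cells, at least 24.7-fold higher. With normexp its measured difference was 3.63, below the corresponding log2 bound of 4.63. Ripk3, the kinase that drives necroptosis, rose from -0.61 and -0.59 to 1.89 and 1.71, a difference of 2.40 (limma, adjusted p = 0.000394). Card6, which carries a caspase recruitment domain, differed by 2.37, with 1 ID8G array not well above background. Txnip, a thioredoxin-binding protein that has been linked to Nlrp3, fell by 1.30 (limma, adjusted p = 0.000913) on 1 probe, while its other tested probe differed by -0.97 and was not called.

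Of the 6 tested transcriptional regulators and interferon-inducible GTPases, 3 were called higher, where 6.44% of all tested genes were. All 3 are interferon-inducible GTPases. Irgm1, of the same kind, differed by 0.43 on its brightest probe and was not called, and Gbp5, Gbp7, Gbp9 and Gm12250 were not tested. Gbp2 rose from -3.32 and -3.28 to -1.59 and -1.47, a difference of 1.78 (limma, adjusted p = 0.00046). Irgm2 rose by 1.85 (adjusted p = 0.001699) and Gbp3 by 1.28, the latter with 1 ID8G array not well above background. With normexp Gbp3 differed by 0.61 and was not called. In all 3 both GO2 arrays lay above both ID8G arrays, where the lines did not overlap in either direction for 73.5% of all tested probes.

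**Figure D4:**
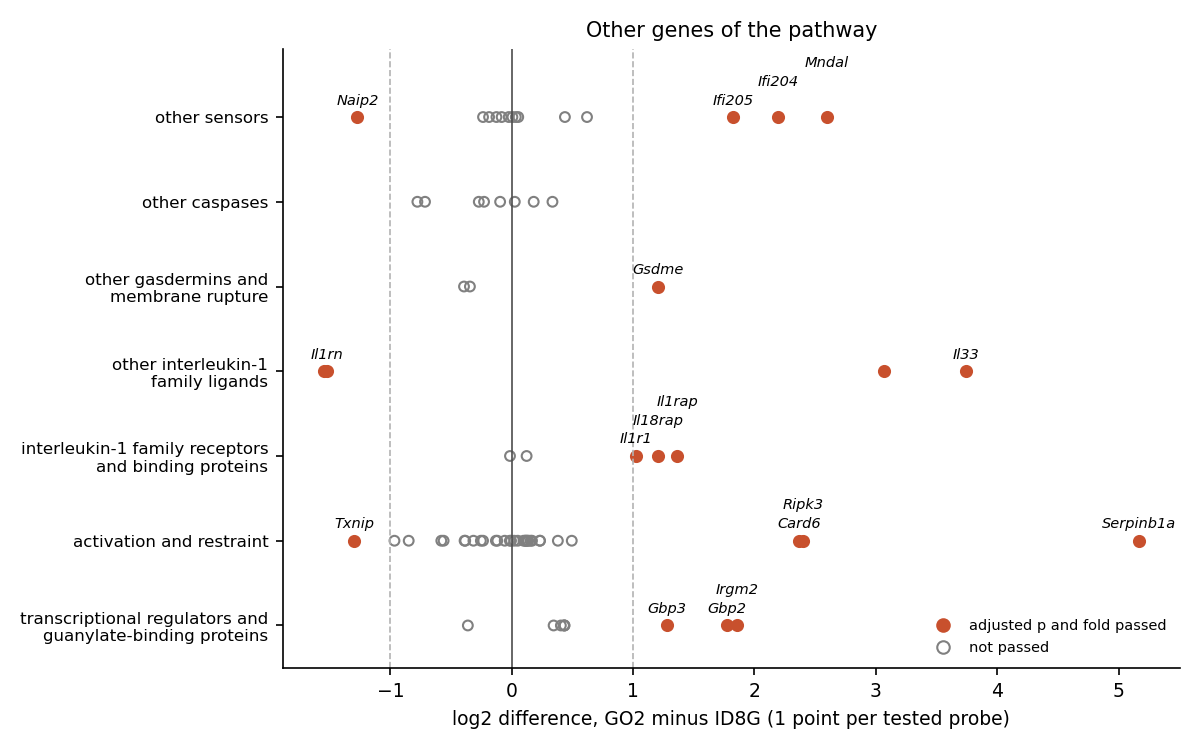
Differences, GO2 minus ID8G on the log2 scale, of the tested probes of the other pathway genes, in rows by role, with filled points for probes that passed the adjusted p and the 2-fold limit (dashed lines) and open points for those that did not. Serpinb1a and Il33 lie farthest to the right, Il1rn, Txnip and Naip2 lie past the lower limit, and most open points cluster around 0.

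Since inflammasome genes are strongly expressed by myeloid cells, markers of other cells that an omental sort could hold were read on the same arrays. The pan-leukocyte marker Ptprc, which encodes the CD45 used in the sort, and the macrophage markers Adgre1, Lyz2, Cd163, Mrc1, Aif1 and Spi1 were not well above background on any array. Of 5 leukocyte markers, 4 were below it on all 4 arrays, and of 16 macrophage markers 9 were. Csf1r, Cd14, Itgam, Cd68, Fcer1g and Mpeg1 were above it on all 4 by their brightest probe. The other probe of Mpeg1 was above it on no array, and those of Itgam and Cd68 only on some. Mpeg1 was called lower in GO2 cells by -1.04 on its brighter probe. The 2 probes of Cd14 differed by -0.67 and -0.69 and were not called, and C1qb was above background only in ID8G cells. The summed level of the leukocyte list was 0.240 to 0.251 times the 75th percentile in ID8G cells and 0.264 to 0.266 in GO2 cells, and that of the macrophage list was 23.7 to 26.4 and 22.5. Most of the macrophage sum came from a single Itgam probe, with log2 levels of 4.18 and 4.39 in ID8G cells and 4.13 and 4.17 in GO2 cells. The epithelial list gave 655.4 to 662.0 in ID8G cells and 373.0 to 376.4 in GO2 cells, with Krt19 called lower by -1.65, Upk3b called higher by 1.08, and Krt8, Krt18 and Wt1 differing by -0.55, -0.81 and -0.10. Krt8, Krt18 and the mesothelial factor Wt1 were above background on all 4 arrays, and Epcam and Krt7 on none. The endothelial list gave 0.175 to 0.207 over both lines, and the adipocyte list 3.66 to 3.79 in ID8G cells and 2.50 to 2.82 in GO2 cells, with Fabp4 called lower, by at least 6.34-fold on its brighter probe. The part of the macrophage, epithelial and adipocyte markers in the differences above was not tested.

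The Casp1 probe had a higher level in GO2 cells under every alternative that kept it, but the size of the difference changed. With normexp background correction it was 4.48, and over all the alternatives it ran from 4.48 to 7.46. The difference of Il18 ran from 2.91 to 4.08, that of Casp4 from -1.55 to -1.29 and that of Pycard from 0.998 to 1.30. Casp1 left the comparison where a probe had to be well above background on all 4 arrays.

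**Figure D5:**
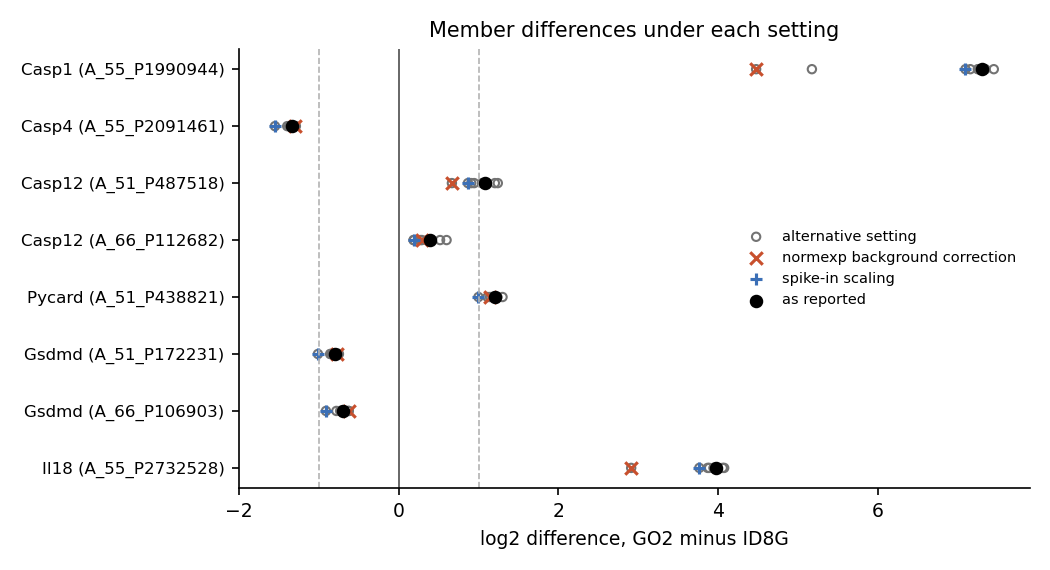
Difference, GO2 minus ID8G on the log2 scale, of the 8 tested probes as reported (black) and under each alternative setting, with normexp background correction and spike-in scaling marked. No probe changes sign, Casp1 moves to 4.48 with normexp, and the first Casp12 probe, Pycard and the first Gsdmd probe lie close to the 2-fold limits shown as dashed lines.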

How the data were processed

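RNA of 2 ID8G and 2 GO2 samples was measured on 1-color Agilent arrays of 1 slide. The authors deposited the intensity of each spot, as background-subtracted by Feature Extraction 11.5.1.1 without scaling across arrays, and marked outliers, saturation and signal well above background. They also deposited log2 values scaled to the 75th percentile and centered per probe, which served as 1 alternative. That table has 0 sample columns that were not used.

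Control and outlier spots were left out, spots of a probe were averaged, and log2 intensities relative to the array's 75th percentile were fitted with limma 3.58.1 in R 4.3.3, with line as the only term and adjustment over 28370 probes. Figures used matplotlib 3.10.9 in python 3.11.15. Of a gene's tested probes the one with the highest mean level stands for the gene. A bound uses, per array, the higher of the lowest signal well above background and the probe's own. RefSeq accessions named 32989 probes (58.3%) through a table of GRCm38.p6. The arrays were designed on mm9, so coordinates are given for promoters of that table only. The named genes are all 10 inflammasome genes, called pathway genes, the tested genes next to them (up to 5 on each side) and the 5 probes nearest to Casp1 in pattern. The inflammasome genes, the lists and these rules were chosen with earlier results of these data known, and 1 gene was left out of the pathway list afterwards and is not reported here. On simulated data 187 of 200 changed probes among 28344 (93.5%) were called, and 10 unchanged ones. The share called among probes that differ by close to 2-fold was not tested separately.

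Alternatives were normexp (offset 50, on the median pixel), quantile and median scaling, spike-ins (7 controls), no filter or all 4 arrays above background, a floor, an intensity trend, outliers kept, the deposited log2 table, the methods' t-test, a replicate block and each replicate left out.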

Additional observations from a re-analysis of the deposited data

How the results depend on the processing

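Of the inflammasome genes, whose calls are a description since the set was selected on this comparison, 4 were called higher and 1 lower, and of the pathway genes 14 higher and 3 lower, and none of the called genes changed sign under any alternative. Scaling to the spike-ins moved the median of all tested probes from -0.02 to -0.23 and the split of all calls from 1277 higher and 947 lower to 1102 and 1434. It left 2 inflammasome genes higher, without Casp12 (0.87) and Pycard (0.998), and made 2 lower, with Gsdmd added (-1.01), and the pathway gave 11 higher, without Gsdme, Il18rap and Il1r1, and 4 lower, with P2rx7 added. Leaving out each replicate gave 3 to 4 inflammasome genes higher and 1 to 1 lower, and 13 to 14 pathway genes higher and 3 to 3 lower. After the same adjustment, the methods' t-test called 0 inflammasome genes higher and 0 lower, and 0 pathway genes higher and 0 lower, where an unadjusted p below 0.05 with 2-fold change gave 4 and 1, and 12 and 3, against 5.25% higher and 3.45% lower of all tested genes. Median centering left 13 pathway genes higher, without Il1r1 (0.99). Normexp left 3 inflammasome genes higher and 11 pathway genes higher, without Casp12 in the first and Gbp3, Il18rap and Il1r1 in the second, and 2 pathway genes lower, without Naip2. With a signal required on all 4 arrays, Casp1 and the 5 pathway genes tested only through GO2 cells dropped out, 4 of them called.

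With the replicate number as a block, 4 inflammasome genes were higher and 1 lower, and 14 pathway genes higher and 3 lower. The numbers were not taken as pairs. Over the tested probes, the change from replicate 1 to replicate 2 in ID8G cells correlated with that in GO2 cells at only 0.0273, and there are only 2 arrays of each line. The slide as a block was not run because there is 1 slide. With 2 arrays per line the precision is limited, and signals in ID8G cells near background, as for Casp1, give bounds only.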
